A study of Mus musculus with 16 samples.

Results

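Replication-dependent histone genes encode the bulk histones that package newly made DNA: the linker histone H1 and the core histones H2A, H2B, H3 and H4. They were taken from a table of RNA sequencing values in mouse mammary tumors as every gene whose symbol begins with Hist1h, Hist2h, Hist3h or Hist4h, or has the newer cluster names of the same genes. The rule found 65 of the 23609 genes in the table, of which 6 encode H1, 18 H2A, 18 H2B, 10 H3 and 13 H4. Of these, 63 are annotated as protein coding and 2, Hist1h2al and Hist3h2bb-ps, as processed pseudogenes. A further 5 genes that match the rule in the annotation were not found in the table and 710 gene identifiers in the table could not be given a symbol, so they were not searched. The rule also takes in Hist1h1t, a linker histone known from the testis.

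Total RNA was sequenced from primary mammary tumors of wildtype littermates and of mice heterozygous for a *Resf1* gene trap (Resf1 +/-). Both groups carried the PyMT oncogene under the MMTV promoter, which drives it in the mammary epithelium, and both came from a cross of the PyMT strain with the gene trap line, in which a lentiviral EGFP-Cre construct sits in *Resf1*. The labels describe 16 tumors, 8 per group, and 5 wildtype and 5 gene trap tumors could be matched by name to a column of values. The age of each animal was not given in the labels, and the comparison asks whether a lower dose of *Resf1*, a gene studied here for its part in metastasis, goes with a change in tumor transcripts.

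Unlike other messenger RNAs, these transcripts end without a poly(A) tail, in a short stem-loop that is bound by SLBP. The 3′ end is cut by a complex with the U7 snRNP proteins LSM10 and LSM11, and the transcripts are made in S phase under NPAT and FLASH and degraded when DNA synthesis stops. Total RNA libraries can hold such transcripts, whereas selection for poly(A) tails removes most of them.

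The stem-loop was searched for in the annotated GENCODE M21 transcripts as a 6-base arm starting with GG, a 4-base loop starting with TT and the matching arm. It was found in 42 of the 65 annotated transcripts, of which 21 ended within 100 bases of it and 21 ran on further. The stem-loops below are shown because the arm differs between the families. Each is read 5′ to 3′ with up to 5 flanking bases, and capitals mark the 16 bases of arm, loop and arm.
Hist1h1c: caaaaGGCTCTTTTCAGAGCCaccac
Hist3h2a: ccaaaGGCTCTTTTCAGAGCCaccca
Hist1h2bb: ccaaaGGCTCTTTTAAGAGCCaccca
Hist1h3b: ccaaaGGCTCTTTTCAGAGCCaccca
Hist1h3e: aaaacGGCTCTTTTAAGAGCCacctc
Hist1h4h: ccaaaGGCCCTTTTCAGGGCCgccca
Hist1h4j: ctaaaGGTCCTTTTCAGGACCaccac
Hist2h4: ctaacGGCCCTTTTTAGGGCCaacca
Hist1h4m: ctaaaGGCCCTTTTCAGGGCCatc
Hist1h4n: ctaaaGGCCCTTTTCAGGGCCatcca

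The arm GGCTCT was found in all 4 H1, 11 H2A, 9 H2B and 7 H3 members with a stem-loop. None of the 11 H4 members with a stem-loop had it: 9 had GGCCCT, as in Hist1h4h, and 2 had GGTCCT, as in Hist1h4j. The 13 H4 genes encode a single protein of 103 residues, the first methionine included, so the H4 transcripts differ in sequence but not in product. Proteins were predicted as the longest open reading frame of 1 annotated transcript per coding gene. Over all members this gave 29 distinct predicted proteins, from 103 to 223 residues long. Some predictions are longer than others of their family, such as Hist2h3c2 at 181 residues beside 136 for Hist1h3b, so the count depends on the annotation.

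The promoters also differed between the families. RefSeq (GRCm38.p6) held 58 start sites for 57 of the members. The 250 bases before each start were searched on both strands for the octamer ATTTGCAT, for CCAAT, for the TATA sequences TATAAA and TATTTAA, and for GGTCCG, which was chosen after the H4 promoters had been read. A TATTTAA match on one strand can overlap a TATAAA match. Capitals mark matches in the 200 bases before the start of a member of each family and of the near-identical pair Hist1h4m and Hist1h4n.
Hist1h1c (H1f2), chr13:23738607-23738806, plus strand: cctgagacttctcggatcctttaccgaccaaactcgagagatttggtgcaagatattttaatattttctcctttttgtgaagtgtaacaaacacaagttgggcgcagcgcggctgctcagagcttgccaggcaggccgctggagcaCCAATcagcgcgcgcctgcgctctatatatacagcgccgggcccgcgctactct
Hist3h2a (H2aw), chr11:58954485-58954684, plus strand: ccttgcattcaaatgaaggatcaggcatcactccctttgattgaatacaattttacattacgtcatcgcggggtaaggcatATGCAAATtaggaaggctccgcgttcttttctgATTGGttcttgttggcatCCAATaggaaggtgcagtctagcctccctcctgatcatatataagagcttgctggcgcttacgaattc
Hist1h2bb (H2bc3), chr13:23746534-23746733, plus strand: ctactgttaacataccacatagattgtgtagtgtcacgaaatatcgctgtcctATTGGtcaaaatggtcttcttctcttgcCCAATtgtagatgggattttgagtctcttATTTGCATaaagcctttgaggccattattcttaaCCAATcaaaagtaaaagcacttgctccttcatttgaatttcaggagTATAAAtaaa
Hist1h3b (H3c2), chr13:23752145-23752344, plus strand: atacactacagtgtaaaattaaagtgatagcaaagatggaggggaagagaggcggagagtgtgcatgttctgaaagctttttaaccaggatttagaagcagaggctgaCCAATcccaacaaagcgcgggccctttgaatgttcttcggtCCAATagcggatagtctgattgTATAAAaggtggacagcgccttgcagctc
Hist1h4j (H4c11), chr13:21734834-21735033, plus strand: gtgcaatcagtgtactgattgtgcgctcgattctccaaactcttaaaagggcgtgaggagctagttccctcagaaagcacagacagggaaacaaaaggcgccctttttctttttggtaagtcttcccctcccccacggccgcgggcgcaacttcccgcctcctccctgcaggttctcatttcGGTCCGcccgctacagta
Hist1h4m (H4c17), chr13:21811546-21811745, plus strand: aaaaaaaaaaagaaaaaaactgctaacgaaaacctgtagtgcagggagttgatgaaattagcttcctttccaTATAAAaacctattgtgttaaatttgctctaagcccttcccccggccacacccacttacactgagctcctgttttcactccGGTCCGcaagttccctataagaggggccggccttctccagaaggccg
Hist1h4n (H4c18), chr13:21832198-21832397, minus strand: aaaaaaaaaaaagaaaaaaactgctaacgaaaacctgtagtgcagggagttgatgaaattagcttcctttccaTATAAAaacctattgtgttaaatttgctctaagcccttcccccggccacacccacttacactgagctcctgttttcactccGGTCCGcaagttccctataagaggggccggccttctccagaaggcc

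The octamer was found in 37.5% of H2A and 37.5% of H2B promoters and in none of those of H1, H3 or H4, against 1.60% of all 32851 RefSeq promoters. Windows of neighbouring H2A and H2B genes can overlap, as for Hist1h2ae and Hist1h2bg, so the same match can count in both families. The percentages of these families are therefore not independent. In Hist1h2bb the octamer stands between CCAAT matches, and in Hist3h2a it is on the opposite strand. CCAAT was found in every H1, H2A and H2B promoter and in 87.5% of H3 promoters, but in 25% of H4 promoters, against 33.8% of all promoters. GGTCCG was found in 75% of H4 promoters, 12.5% of H3 and 6.25% of H2B promoters and in no H1 or H2A promoter, against 6.72% of all promoters. TATAAA was found in 46.6% of member promoters and 12.4% of all promoters, and TATTTAA in 13.8% and 4.18%. The promoters of Hist1h4m and Hist1h4n shared a run of 199 bases within their windows of 200.

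*Resf1* itself was measured first. Its normalized value was 4215, 4397, 3881, 4487 and 3517 in wildtype replicates 1 to 5 and 4029, 3066, 3686, 3392 and 3409 in gene trap replicates 1 to 5. The gene trap tumors were lower on average, and the groups overlapped. The log2 difference was -0.22 (SE 0.09), with p = 0.0313 and adjusted p = 1.00 in limma and p = 0.0635 in an exact two-sided permutation test, which could go no lower than 0.00794 with 252 arrangements. Without gene trap replicate 2, which is described below, the difference was -0.17 (SE 0.09) and its unadjusted p in limma was no longer under 0.05. All 10 epithelial markers were measured in every tumor, with none below 1951, so the tissue label and the markers go together.

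One tumor stood apart from the other 9. In gene trap replicate 2, 926 of the 21034 tested genes were more than 2-fold below every other tumor, against 11 to 53 genes in each of the others. Short transcripts were high in it: for the 92 protein-coding genes outside the rule whose transcript is below 600 bases, log2 deviations had a median of 0.76 there and of -0.14 to 0.08 elsewhere. *Rmrp* and *Rpph1*, the RNAs of RNase MRP and RNase P, which have no poly(A) tail, stood at 621097 and 923522 in that library, while the remaining tumors reached at most 150345 and 419896. The genotype comparisons are therefore also given without that tumor, and the part of its library in the histone values was not tested. The depth of the libraries is unknown, since the values had been normalized, and their totals lay between 31995078 and 42153593.

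All 65 members passed the filter on low values, a mean value of 10 or more across tumors. They made up 0.210% to 0.379% of the summed values in 9 tumors and 0.499% in gene trap replicate 2. Per kilobase of annotated transcript, the mean level over tumors ran from 14.6 for Hist1h1t to 14185 for Hist1h4h, with a median over members of 1848. Hist1h4h was followed by Hist1h4n at 8938 and Hist2h2bb at 8100 per kilobase. The means include gene trap replicate 2, where Hist1h4n was at 14239 and Hist2h2bb at 0.00702. Outside that tumor Hist2h2bb had the higher mean value, at 3452 in wildtype and 3400 in gene trap tumors, against 2941 and 2373 for Hist1h4n. The highest members in the other families were Hist2h2aa2 at 6292, Hist1h1a at 4242 and Hist1h3b at 3757 per kilobase. Annotated lengths weigh on these ranks: Hist1h1d, with 7425 bases, had a higher mean value than Hist1h1a, at 5210 against 3143, but 702 per kilobase. The family medians per kilobase were 3761 for H1, 3632 for H4, 1961 for H3, 1782 for H2B and 824 for H2A, and 6 members had a mean normalized value under 100. In a tumor, fewer cells in S phase and less histone RNA per cell cannot be told apart.

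**Figure D1:**
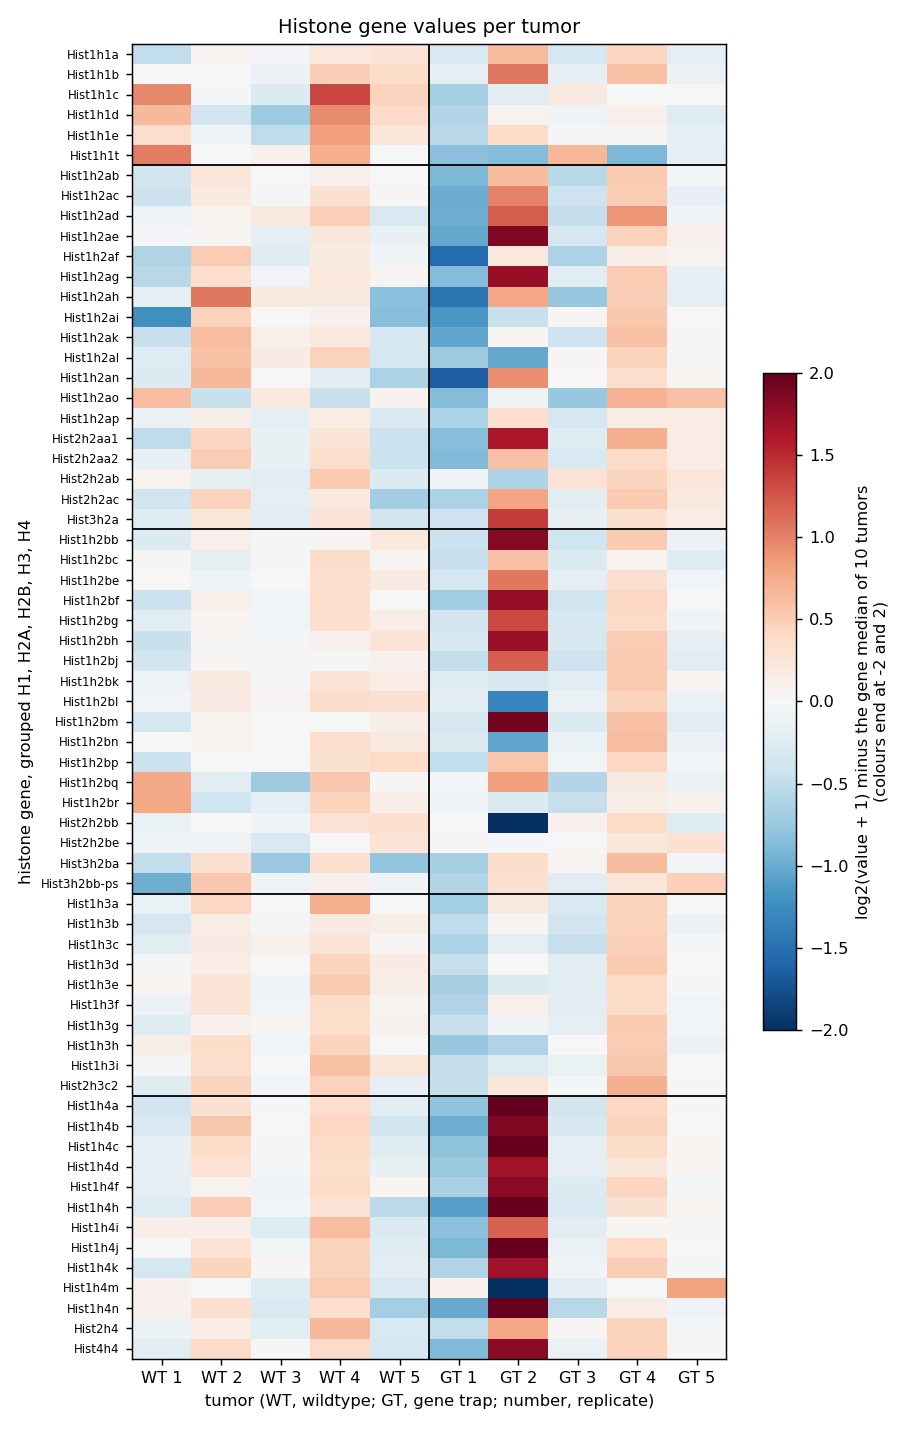
Each row is a histone gene and each column a tumor, and the colour gives log2(value + 1) minus the gene's median over the 10 tumors, in log2 units, with colours ending at -2 and 2. Gene trap replicate 2 is red in 12 of 13 H4 genes and pale in H3, gene trap replicate 1 is blue in most genes, and gene trap replicate 4 and wildtype replicate 4 are mostly red.

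The H4 genes, whose protein pairs with H3 at the centre of the nucleosome, gave the largest difference between tumors. Their summed normalized value was 24539, 34214, 25541, 35573 and 21983 in wildtype replicates 1 to 5. It was 15660, 103161, 22763, 33704 and 28282 in gene trap replicates 1 to 5. Gene trap replicate 2 was 4.04-fold above the median of the other tumors, and the remaining gene trap tumors lay across the wildtype range and below it. The H3 sum was 12825, 16747, 13905, 18706 and 14862 in the wildtype tumors and 9548, 13654, 12009, 19706 and 13655 in the gene trap tumors. H3 in gene trap replicate 2 was thus within the range of the others, 0.982-fold of their median.

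The ratio of the H4 sum to the H3 sum was 7.56 in gene trap replicate 2 and between 1.48 and 2.07 in the other 9 tumors. The ratio of H2A to H3 was 1.71 there and 0.648 to 0.965 elsewhere, and that of H2B to H3 was 3.09 and 1.41 to 2.03. The ratio of H2A to H2B, the histones that form a dimer, was 0.553 in that tumor and lay within the 0.360 to 0.683 of the others. The ratio of the linker histone H1 to H3 was also within the range, at 2.06 against 1.24 to 2.43. H4, H2A and H2B were therefore displaced from H3 by different amounts in 1 tumor, and their ratios to H3 ranged less widely in the rest.

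**Figure D2:**
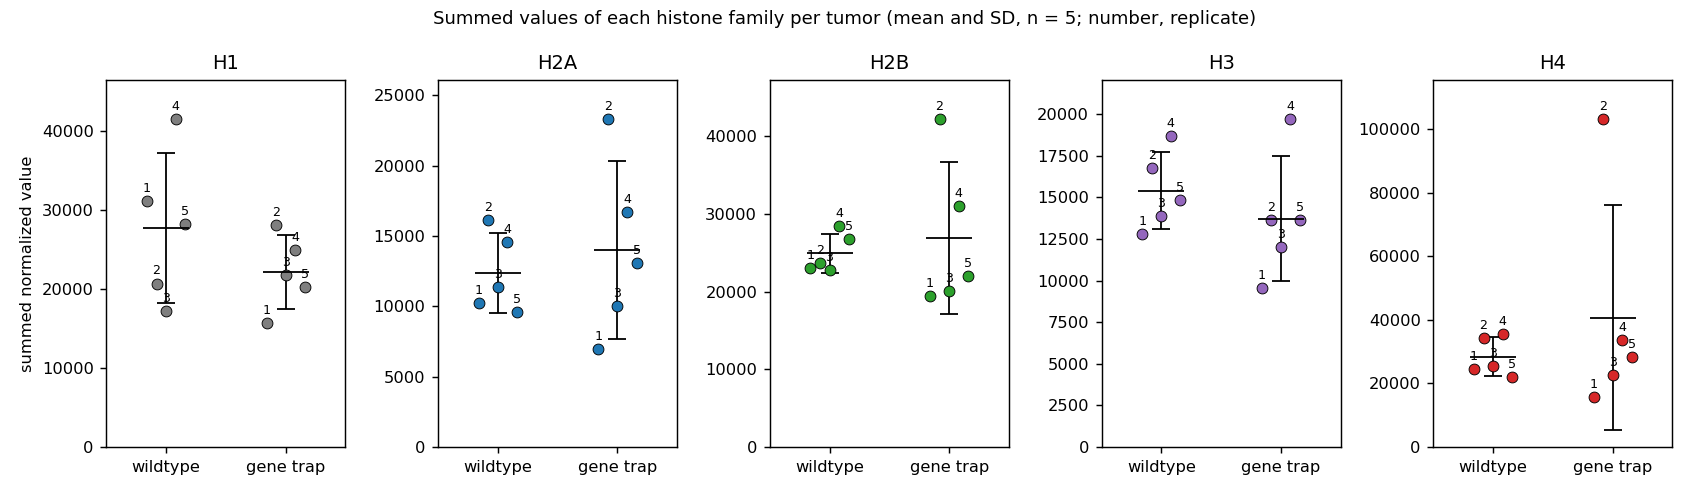
Points are the summed normalized values of each family in each tumor, with the replicate number beside them, and bars give the mean and SD of the 5 tumors of a group. Gene trap replicate 2 stands at 103161 for H4 and at 42195 for H2B, the highest of all tumors, but at 13654 for H3, among the others.

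Within H4, 12 of 13 genes were highest in gene trap replicate 2 and 11 were more than 2-fold above the median of the other tumors. Hist1h4h was at 4186, 7115, 4812, 6099 and 3477 in the wildtype tumors and at 2348, 23227, 4057, 6166 and 5183 in the gene trap tumors. Hist1h4j, with the arm GGTCCT, was at 1050, 1280, 1007, 1439 and 884 in wildtype and at 561, 5511, 955, 1383 and 1042 in gene trap tumors. Both had the same pattern, with replicate 2 highest and replicate 1 lowest in the gene trap group. Hist1h4f was at 6309 in gene trap replicate 2 and between 1145 and 2423 elsewhere, and Hist1h4k at 1630 there and between 336 and 714 elsewhere.

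The near-identical pair behaved differently. Hist1h4n was at 3126, 3685, 2367, 3689 and 1836 in the wildtype tumors and at 1462, 14239, 2001, 3268 and 2761 in the gene trap tumors. Hist1h4m was at 1227, 1154, 977, 1636 and 940 in the wildtype tumors and at 1225, 249, 1001, 1157 and 2026 in the gene trap tumors. In gene trap replicate 2, Hist1h4n was thus highest and Hist1h4m lowest of all tumors. Of the 50-base words in the annotated Hist1h4m transcript, 89.8% were also in Hist1h4n, so reads from the pair could be split between them in more than one way. Their sum was 14487 in that tumor and 2687 to 5325 in the others, of which Hist1h4m had 1.72% there and 23.8% to 45.6% elsewhere.

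The H2A and H2B genes, many of which lie head to head and share a promoter region, were split in that tumor. Hist3h2a was at 1449, 2024, 1471, 2050 and 1321 in the wildtype tumors and at 1281, 4492, 1541, 2132 and 1891 in the gene trap tumors. Hist1h2bb was at 2062, 2655, 2448, 2512 and 2869 in the wildtype tumors and at 1847, 8802, 1884, 3583 and 2289 in the gene trap tumors. For both, gene trap replicate 2 was more than 2-fold above the next tumor. In all, 11 of 18 H2A and 10 of 18 H2B genes were highest there, while 2 H2A and 4 H2B genes were lowest.

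Hist2h2bb was the extreme case among the members that were lowest there. It was at 2942, 3251, 3041, 3950 and 4076 in the wildtype tumors and at 3209, 0.00702, 3444, 4220 and 2726 in the gene trap tumors. The value near 0 was in replicate 2 alone. Every 50-base word of its annotated transcript was also in Gm20628, a gene named here after its values were seen. Gm20628 was at 13730 in gene trap replicate 2 and between 4632 and 7477 in the others, and the sum of the pair was 13730 and 7560 to 11697. Hist1h2bl was also low there, at 292 against 619 to 988, and Hist1h2al, a pseudogene, was at 199 against 244 to 608. Hist1h2bk, another H2B gene, was at 1899 there and between 2013 and 3413 in the others.

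The share of a member's 50-base words that another annotated gene also holds ran from 0% to 100%, with a median of 54.1%. In gene trap replicate 2, 14 of the 33 members with at least 50% were below the median of the other tumors, against 5 of the 32 members with less. Spearman's rho between that share and the log2 difference was -0.28 over the 65 members, which share a library and in part their sequence. Within H1, H2A, H2B, H3 and H4 it was -0.21, -0.25, -0.39, -0.47 and 0.08. The members with less than 50% include 9 H4 and 6 H1 genes, and the part of family in these figures was not tested. Hist2h2aa1 and Hist2h2aa2, whose annotated transcripts shared every 50-base word with another gene, gave a sum of 9661 in that tumor and of 2593 to 6727 in the others, with 50.6% in Hist2h2aa1 there and 28.4% to 38.8% elsewhere. Values of single members with a high share are uncertain by this division of reads. Family sums are not free of it, since Hist2h2bb shares its words with Gm20628, which is not a member.

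**Figure D3:**
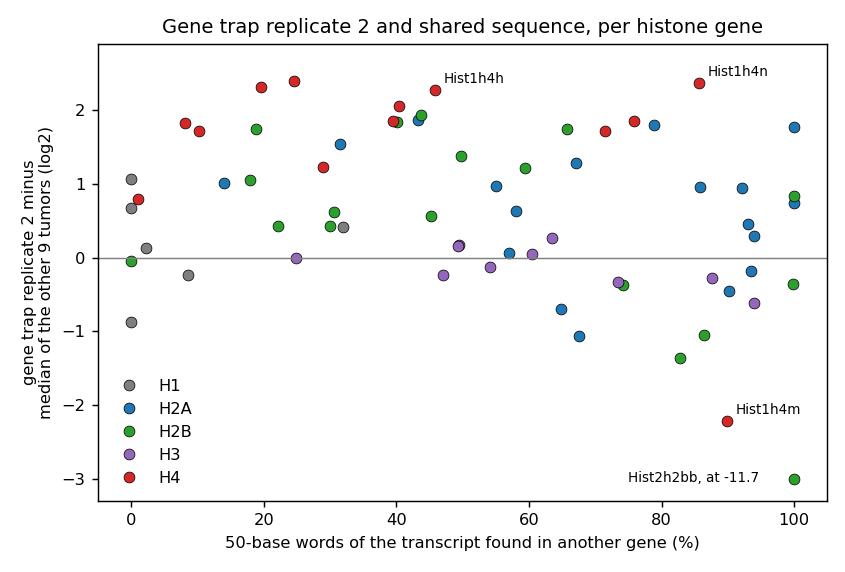
Each point is a histone gene. The horizontal axis is the percentage of its 50-base words found in another gene, and the vertical axis is its log2 value in gene trap replicate 2 minus the median of the other 9 tumors. H4 genes are mostly near 2 at any share, H3 genes lie closer to 0, and the lowest points, Hist1h4m and Hist2h2bb (drawn at the edge, true value -11.7), have shares of 89.8% and 100%.

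Members with and without the stem-loop in their annotated transcript differed in that tumor. The median log2 deviation from each gene's median was 1.20 for the 21 members whose transcript ends within 100 bases of the stem-loop and 0.99 for the 21 that run on further. It was 0.03 for the 23 members without a stem-loop in the annotated transcript. Some of these transcripts are annotated only as far as the stop codon, such as Hist1h2bl, with 381 bases for 126 residues. For such members the class describes the annotation and does not show that the gene lacks a stem-loop. Among the other tumors the classes were widest apart in gene trap replicate 1, at -0.68, -0.66 and -0.48. The classes are not balanced by family, since 11 of the 13 H4 members have a stem-loop. Nor are they balanced by shared sequence. Most members without a stem-loop share the larger part of their sequence words with another gene, and most members with one do not. The parts of family and of shared sequence in the difference between classes were not tested.

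Other tumors were displaced as a whole. Gene trap replicate 1 was lowest of the 10 tumors in 46 of 65 members, which included all 10 H3 genes, 12 of 13 H4 genes and 14 of 18 H2A genes. Gene trap replicate 4 was above the median of the others in 63 members and wildtype replicate 4 in 60. Hist1h3b, the highest H3 gene per kilobase, was at 1872, 2613, 2314, 2665 and 2548 in wildtype and at 1652, 2388, 1822, 3238 and 2178 in gene trap tumors. The lowest and the highest tumor were thus both gene trap tumors. The H3 sum had a mean of 15409 ± 2340 in wildtype and 13714 ± 3748 in gene trap tumors (SD, n = 5), so the means differed by less than the SD within either group.

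The members varied together across tumors. The mean Pearson correlation between pairs of members over the 10 tumors was 0.87 within H3, 0.70 within H4, 0.59 within H2A, 0.41 within H1 and 0.25 within H2B. Without gene trap replicate 2 it was 0.92, 0.81, 0.74, 0.51 and 0.57 over 9 tumors. Over all members it was 0.42 with that tumor and 0.62 without it. Over all tested genes it was 0.00 in both, and within the lists of DNA replication and mitosis genes it was 0.55 and 0.74, or 0.65 and 0.82 without that tumor. These values describe libraries in which all genes share the normalization of their tumor. The families also differ in shared sequence: the median share of 50-base words found in another gene ran from 1.13% in H1 to 73.2% in H2A. Its part in these correlations was not tested.

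Histone transcripts and other S-phase transcripts were then set side by side in each tumor. The 24 DNA replication genes include the MCM helicase, PCNA and ribonucleotide reductase, and the 15 mitosis genes include *Mki67* and *Top2a*. In gene trap replicate 4 the median deviation was 0.50 for H3, 0.36 for DNA replication and 0.49 for mitosis, so all were high. In wildtype replicate 4 it was 0.45 for H3 but -0.05 for DNA replication and -0.08 for mitosis. In gene trap replicate 1 it was -0.56 for H3 but 0.01 for DNA replication and 0.06 for mitosis. Histone level and the level of these lists therefore did not keep the same order of tumors.

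For a single measure per tumor, deviations were taken from each gene's mean over tumors in place of its median. The median deviation of the members minus that of the DNA replication genes was then 0.02 ± 0.27 (SD, n = 5) in wildtype and -0.01 ± 0.42 in gene trap tumors. The difference between the means was less than the SD within either group. Without gene trap replicate 2 the gene trap mean was -0.16 ± 0.31 (n = 4). The 3 genes in the table, of 8 listed as structural RNAs, were Rmrp, Rpph1 and Malat1, which is a long noncoding RNA. With 3 genes, their median deviation in a tumor is the value of 1 gene. It was -1.02 in gene trap replicate 1, -0.76 in wildtype replicate 5, 0.67 in wildtype replicate 2 and 1.81 in gene trap replicate 2. *Malat1* was at 719376, 637153, 483130 and 957430 in these tumors, so outside gene trap replicate 2 it went against that median. H4 was at -0.81, -0.28, 0.30 and 1.81 in the same tumors.

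**Figure D4:**
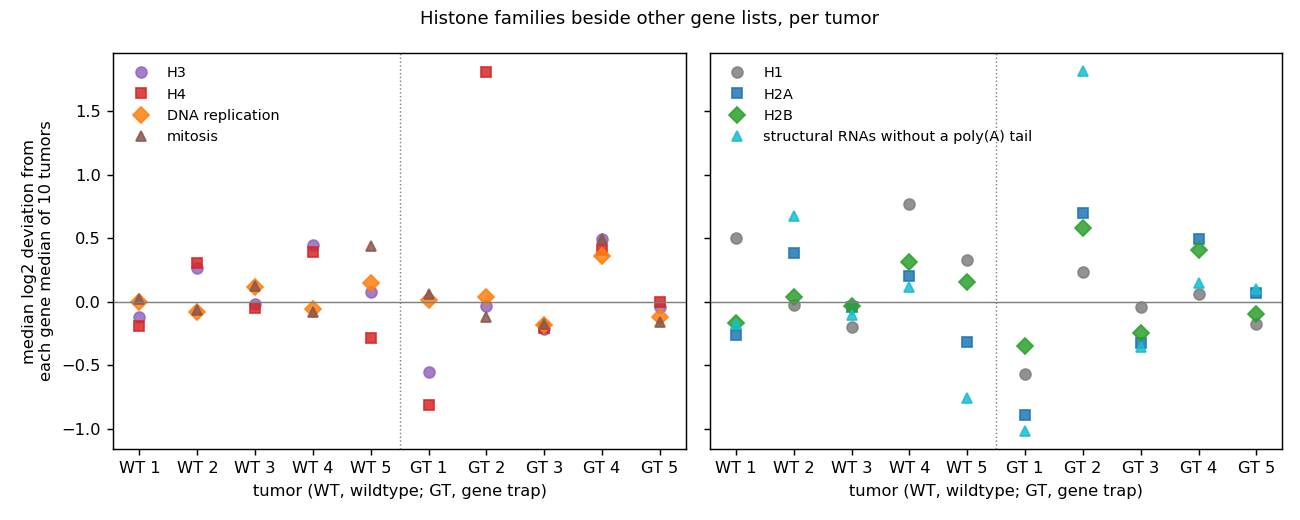
Points are the median log2 deviation of each gene list from its genes' medians over the 10 tumors, with H3, H4, DNA replication and mitosis on the left and H1, H2A, H2B and the structural RNAs on the right. In gene trap replicate 2, H4 and the list of 3 structural RNAs, Malat1 included, both stand at 1.81 while H3, DNA replication and mitosis stay between -0.12 and 0.04.

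The comparison of gene trap with wildtype called no member and no other gene. With limma, 0.0% of the 21034 tested genes had an adjusted p under 0.05, and 2.28% had an unadjusted p under 0.05. Of the 65 members, 2 had an unadjusted p under 0.05. The groups did not overlap in 0 members and in 0.528% of all tested genes. Of the members, 34 were higher and 31 lower in gene trap tumors, beside 51.4% higher among all tested genes, and their median log2 difference was 0.02, against 0.00 over all tested genes.

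The count of higher members depended on which tumor was left out. Without gene trap replicate 2, 9 members were higher and 56 lower, with a median log2 difference of -0.18, against 50.1% higher and a median of 0.00 over all tested genes. Without gene trap replicate 1 instead, 42 members were higher and the median was 0.17. Without gene trap replicate 2, 1 member had an unadjusted p under 0.05, beside 1.89% of all genes, and 0 members had groups that did not overlap, beside 0.732% of all genes. That member was Hist1h2bc, at -0.28. The lowest adjusted p over all genes was 1.00 with and without that tumor. Members of a family vary together and are not separate observations, so these counts are a description.

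The families shifted by different amounts with that tumor. The median log2 difference of H4 was 0.21 with it, with 11 of 13 members higher, and -0.21 without it, with 1 of 13 higher. The H3 median was -0.21 and -0.23, with 1 and then 0 of 10 members higher. The H2A median was 0.01 and -0.18, the H2B median 0.10 and -0.10, and the H1 median -0.28 and -0.36. Summed by identical predicted protein, 17 of 29 groups were higher with a median of 0.03, and 5 of 29 were higher with a median of -0.12 without that tumor.

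**Figure D5:**
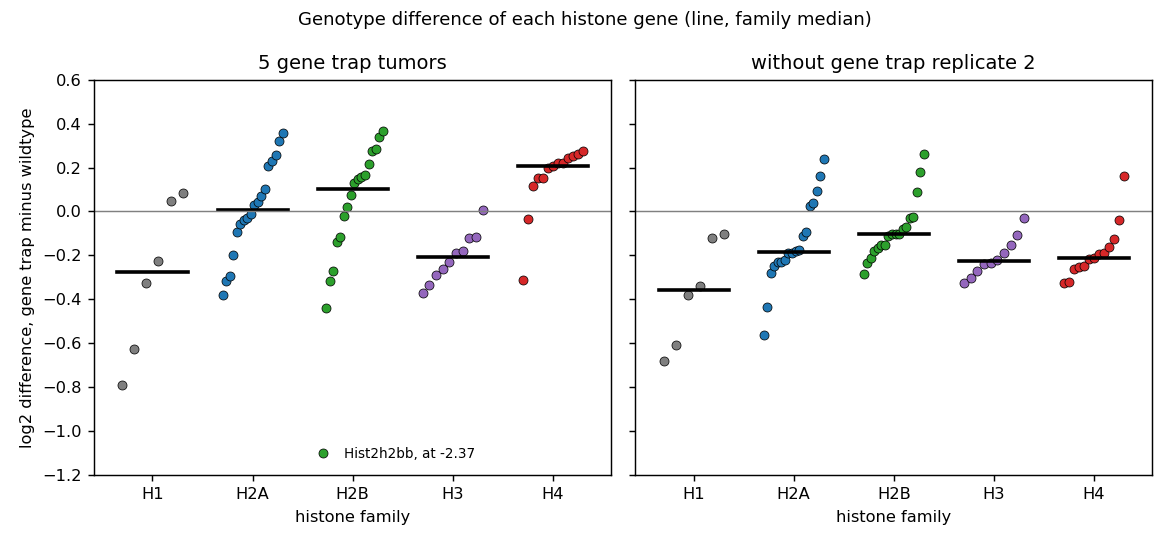
Each point is the log2 difference of a histone gene, gene trap minus wildtype, by family, with 5 gene trap tumors on the left and without gene trap replicate 2 on the right, and lines are family medians. H4 sits at a median of 0.21 on the left and -0.21 on the right, and H3 sits at -0.21 and -0.23. Hist2h2bb is drawn at the edge on the left with its value of -2.37, and is at -0.027 on the right.

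The H1 genes, whose proteins bind the linker DNA between nucleosomes, gave both members with an unadjusted p under 0.05. Hist1h1c was at 10469, 5249, 4435, 13643 and 7295 in the wildtype tumors and at 3378, 4632, 6101, 5335 and 5428 in the gene trap tumors. Wildtype replicates 1, 4 and 5 were above every gene trap tumor, and replicates 2 and 3 lay within their range. Its mean was 8218 ± 3823 in wildtype and 4975 ± 1033 in gene trap tumors (SD, n = 5), and its log2 difference was -0.63 (SE 0.28), with adjusted p = 1.00 in limma. Without gene trap replicate 2 it was -0.61 (SE 0.31) and no longer passed the unadjusted threshold.

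Hist1h1t, the testis linker histone, was near the filter. It was at 26.02, 12.32, 12.98, 20.84 and 12.13 in the wildtype tumors and at 6.38, 6.26, 19.96, 6.06 and 10.64 in the gene trap tumors. Its log2 difference was -0.79 (SE 0.36), with adjusted p = 1.00 in limma, and -0.68 without gene trap replicate 2, where it no longer passed the unadjusted threshold. Hist1h1a and Hist1h1b had log2 differences of 0.05 and 0.09, and of -0.10 and -0.12 without gene trap replicate 2.

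In the fit of 10 tumors, no core histone gene passed either threshold. In H3, the smallest unadjusted p belonged to Hist1h3e, at -0.34 (SE 0.17, adjusted p = 1.00 in limma) and -0.30 without gene trap replicate 2. Hist1h3e was at 1961, 2309, 1796, 2746 and 2084 in wildtype and at 1205, 1557, 1653, 2525 and 1857 in gene trap tumors, and the groups overlapped. Hist1h3h was at -0.37 on the log2 scale and at -0.27 without that tumor, Hist1h3i at -0.29 and -0.24, Hist1h3b at -0.12 and -0.15, and Hist1h3g at -0.12 and -0.11. The H3 genes thus moved little when it was left out.

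The log2 differences of other core histones depended on that tumor. In H2A, Hist2h2aa1 was at 0.36 with it and 0.023 without it, Hist3h2a at 0.32 and 0.039, and Hist1h2al at -0.38 and -0.19. Hist2h2aa2 was at -0.04 and -0.19, and Hist1h2ap at -0.01 and -0.11. In H2B, Hist2h2bb was at -2.37 (SE 1.91) with its value near 0 and at -0.027 without that tumor. Hist1h2bl was at -0.44 and -0.18, Hist1h2br at -0.27 and -0.23, Hist1h2bk at -0.14 and -0.07, and Hist1h2bb at 0.28 and -0.11. In H4, Hist1h4h was at 0.24 and -0.25, Hist1h4n at 0.21 and -0.32, Hist1h4f at 0.20 and -0.19, Hist1h4k at 0.22 and -0.13, and Hist1h4j at 0.26 and -0.25. Hist1h4m was at -0.31 and 0.16, so all of these H4 genes took the other sign.

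The genes that make, process and degrade histone transcripts had no adjusted or unadjusted p under 0.05, with or without gene trap replicate 2. Of the 10 genes of histone gene transcription, 5 were higher in gene trap tumors with it and 9 without it, and the median log2 difference was 0.02 and 0.03. *Npat*, the cyclin E and CDK2 substrate that activates histone genes, was at -0.09 with that tumor and 0.00 without it, and *Casp8ap2*, which encodes FLASH, at -0.01 and 0.07. *Hinfp*, a factor of H4 promoters, was at 0.12 and 0.16, and *Coil*, a protein of nuclear bodies, at 0.13 and 0.05. Of the 12 genes of 3′ end processing, 7 and 8 were higher, with medians of 0.03 and 0.05. *Slbp* was at 0.15 and 0.07, *Lsm11* at 0.16 and 0.18, and *Fip1l1*, a subunit of the cleavage machinery, at 0.12 and 0.11. Of the 6 genes of histone mRNA decay, 2 and 4 were higher, with medians of -0.01 and 0.03, and *Upf1* was at 0.13 and 0.10 and *Dis3l2* at -0.03 and -0.02.

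*Slbp* was at 1049, 1331, 1393, 1255 and 1298 in the wildtype tumors and at 1478, 1704, 1096, 1535 and 1243 in the gene trap tumors. It was highest in gene trap replicate 2, but high as well in gene trap replicate 1, where histone transcripts were lowest. *Npat* was at 1316, 1127, 1316, 1227 and 1325 in wildtype and at 1308, 927, 1175, 1257 and 1320 in gene trap tumors, with gene trap replicate 2 lowest. The groups overlapped for both genes.

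The remaining lists also had 0 genes with an unadjusted p under 0.05 in limma, with or without that tumor. Of the 24 DNA replication genes, 9 were higher in gene trap tumors with it and 8 without it, with medians of -0.02 and -0.03. *Pcna*, the sliding clamp of DNA polymerase, was at 0.01 and -0.01, *Mcm6* at -0.15 and -0.033, and *Uhrf1* at 0.22 and 0.17. Of the 15 mitosis genes, 3 and 4 were higher, with medians of -0.05 and -0.04, and *Mki67*, the proliferation marker, was at -0.10 and -0.022 and *Birc5* at -0.08 in both. Of the 11 replication-independent histone variants, 5 and 3 were higher, with medians of -0.03 and -0.09. *H1fx* was at -0.41 (SE 0.29) and -0.36, with values near the filter, from 12.80 to 40.93 over the tumors. *H2afy*, which encodes macroH2A, was at -0.07 and -0.09. Of the 11 histone chaperones, 7 and 5 were higher, with medians of 0.02 and 0.00, and the CAF-1 subunits *Chaf1a* and *Chaf1b* were at 0.14 and -0.12, and at 0.14 and -0.09 without that tumor. The RNAs listed as structural were not flat: all 3 were higher with that tumor and 1 without it, with medians of 0.25 and -0.20. *Malat1* was at 0.25 and 0.12, and *Rmrp* at 0.40 and -0.20.

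Markers of other cells were measured beside these values. All 8 myoepithelial and basal markers were lower in gene trap tumors, with and without gene trap replicate 2, and their median log2 difference was -0.39 and -0.36. Of them, *Krt17* and *Myh11* had an unadjusted p under 0.05 in limma with that tumor, and 3 markers had one without it. Over all tested genes the shares were 2.28% with that tumor and 1.89% without it. With that tumor, 0 of these markers had an adjusted p under 0.05. The markers of a cell type vary together and are not separate observations. Their summed value was 7452 to 10277 in wildtype and 5537 to 7455 in gene trap tumors. The median log2 difference was -0.01 with that tumor and -0.01 without it for 10 epithelial markers, -0.14 and -0.06 for 7 lymphocyte, -0.02 and -0.07 for 9 macrophage, 0.09 and 0.10 for 8 fibroblast and -0.07 and 0.02 for 8 endothelial markers. In these 5 lists 0 genes had an unadjusted p under 0.05 in either fit. With that tumor, 5, 2, 3, 8 and 1 of them were higher in gene trap tumors, and without it 3, 2, 2, 6 and 5. No gene in the table was at 0 in any of these tumors, so a value above 0 does not show that a marker was detected. The lowest value of a lymphocyte marker was 3.24, and 3 of the 11 listed lymphocyte markers were not found in the table. The fibroblast markers summed to 121539 in gene trap replicate 1, and the other tumors ranged from 39973 to 85217. The part of these cells in the histone values was not tested.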

How the data were processed

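Values came from 10 of the 16 columns of a table of the mouse tumors, with samples grouped by the labels, and 6 columns that matched no tumor by name were not used. The authors deposited a signal per gene: estimated counts normalized by the median ratio method. The submitters' processing notes name STAR 2.7.8a, mm39, Partek and DESeq2, while the counter and annotation were not given in the sources used here. The values are not whole reads, so depth is unknown and no count test was run.

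Of the gene identifiers, 22899 were given GENCODE M21 symbols. Genes averaging 10 or more were compared on log2(value + 1) with limma 3.58.1 (R 4.3.3; variance trend, Benjamini-Hochberg adjustment over 21034 genes, threshold 0.05), which was checked on simulated data. The labels do not say more of the replicates than that they are separate tumors of littermates. Members and lists were chosen with earlier results of these data known. Genes named were Resf1, per family the 3 highest per kilobase and the 2 with the smallest p, the 3 members with the widest range, the 2 smallest p of each pathway list, and Slbp, Npat, Casp8ap2, Lsm11, Mki67 and Pcna; others are named as such or by their tumor pattern. Shared sequence was the percentage of 50-base words of an annotated transcript also present in a transcript of another gene. Stem-loops and lengths were read from GENCODE M21 and promoters from RefSeq, both GRCm38, and no coordinate was converted to mm39. Alternatives were another pseudocount, other filters, weights per tumor, a fit lacking the variance trend, quantile normalization, a replicate block, sums by protein, coding members alone, and each tumor left out. Tumors with the same number are different animals, and their deviations had a mean correlation of -0.01 over 5 pairs (-0.16 to 0.15), so they were not paired.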

Additional observations from a re-analysis of the deposited data

Results flagged for a closer look

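In groups of 5 tumors, a value was singled out when its gap to the nearest tumor exceeded the share of the group's range that Dixon's test sets for 5 values. This happened in 11 of 112 groups, where chance gives about 1 in 20, or 5.6, for independent groups. The groups share tumors and genes, and some genes were named for a wide range or a high mean. The count therefore cannot be set against 5.6. Of the 11, 10 were in gene trap replicate 2. They were the H4 sum (103161, with the rest of its group at 15660 to 33704), the ratio of H4 to H3 (7.56, against 1.64 to 2.07), the ratio of H2A to H3 (1.71, against 0.732 to 0.960), and Hist1h4h (23227, against 2348 to 6166). The others there were Hist1h4n (14239, against 1462 to 3268), Hist1h4f (6309, against 1145 to 2423), Hist1h4j (5511, against 561 to 1383), Hist1h2bb (8802, against 1847 to 3583) and Hist3h2a (4492, against 1281 to 2132). The last was the structural RNA *Rmrp* (621097, against 44762 to 104134). These genes share 1 library and are not separate observations. In the wildtype group, *Dis3l2* was at 1196 in replicate 1, against 1044 to 1086 in the others.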

How the results depend on the processing

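Across 17 alternatives, 0 genes had an adjusted p under 0.05, and between 308 and 692 had an unadjusted p under 0.05; the lowest of these counts came without wildtype replicate 4. The log2 difference of *Resf1* stayed between -0.28 and -0.17, and without gene trap replicate 2 its unadjusted p was no longer under 0.05. The median difference of the members ran from -0.18 without gene trap replicate 2 to 0.17 without gene trap replicate 1, with 9 and 42 members higher, and was -0.17 with 10 higher under weights per tumor; other settings gave 26 to 41 higher, sums by protein aside. It was 0.02 with 34 higher under the replicate block, which gave 426 genes with an unadjusted p under 0.05 and changed no call. The level relative to DNA replication genes ran from -0.18 to 0.12, within 1 SD; weights, variance trend, block and the fit without a filter were not run for it, since it comes from no fit and every gene in it passed the filter.

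Of 25 named members, 11 changed sign in at least 1 of the alternatives. Under weights per tumor, Hist1h1a was at -0.11, Hist1h1b at -0.10, Hist1h2bb at -0.063, Hist1h4f at -0.15, Hist1h4h at -0.20, Hist1h4j at -0.18, Hist1h4k at -0.10, Hist1h4m at 0.037 and Hist1h4n at -0.25. With each tumor left out in turn, Hist1h1a ran from -0.10 to 0.15, Hist1h1b from -0.12 to 0.19, Hist1h2ap from -0.11 to 0.13, Hist1h2bb from -0.11 to 0.45, Hist2h2aa2 from -0.19 to 0.18, Hist1h4f from -0.19 to 0.42, Hist1h4h from -0.25 to 0.58, Hist1h4j from -0.25 to 0.57, Hist1h4k from -0.13 to 0.44, Hist1h4m from -0.59 to 0.16 and Hist1h4n from -0.32 to 0.50. Without gene trap replicate 2, 9 of these took the other sign from the 10 tumors. Hist1h1c stayed between -0.82 and -0.41, the smaller size without wildtype replicate 4. The lowest adjusted p of a named member in any setting was 0.978 in limma. The depth, and so the counting error, is unknown. The sharing of reads among near-identical genes limits values of single members.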
